A study of Mus musculus with 6 samples.

Results

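The activin, inhibin, follistatin and anti-Müllerian hormone (AMH) genes were followed in mouse ovarian surface epithelial cells, the single cell layer that covers the ovary, given Cre to delete the genes of the Hippo kinases LATS1 and LATS2. The 8 genes were chosen by name from a count table of 48440 genes: the inhibin subunit genes Inhba, Inhbb and Inha, the binding protein genes Fst, Fstl3 and Fstl1, and the hormone and receptor genes Amh and Amhr2. Of these, 7 passed the low-count filter, and Amhr2 did not. There were 3 libraries of cells given an adenovirus for Cre recombinase and GFP (Ad-Cre-GFP, genotype label Lats1/2 knockout) and 3 of cells given an adenovirus for GFP alone (Ad-GFP, genotype label WT). RNA was taken 7 days after transduction in all 6, and mRNA was selected by its poly(A) tail. The Lats1 and Lats2 alleles that Cre acts on, the strain and age of the donor mice and the number of cultures were not given in the texts at hand. Both groups carried virus and GFP, so Cre exposure and deletion cannot be told apart.

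Activins are dimers of the beta subunits encoded by Inhba and Inhbb. Inhibins pair one beta subunit with the alpha subunit from Inha and oppose activin at its receptors. Activin binds a type II receptor (ACVR2A or ACVR2B), which recruits the type I receptor ALK4 (Acvr1b), and SMAD2 and SMAD3 carry the signal to the nucleus. Follistatin (Fst) and FSTL3 bind activin and keep it from its receptors, whereas FSTL1 shares the follistatin domain but is known mainly for other partners. AMH, made by Sertoli and granulosa cells, signals through AMHR2 with BMP type I receptors and makes the Müllerian duct regress. In the ovary, granulosa cells are the usual source of inhibin and AMH.

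Library totals were 27734527 to 30304033 counts for Ad-Cre-GFP and 18690235 to 25363462 for Ad-GFP. Values in CPM are counts scaled by TMM to a common library size. Lats1 was at 37.1 ± 1.36 CPM in Ad-Cre-GFP and 159.5 ± 8.74 CPM in Ad-GFP cells (SD, n = 3 each). Lats2 was at 98.7 ± 1.97 CPM in Ad-Cre-GFP and 129.5 ± 2.16 CPM in Ad-GFP cells (SD, n = 3 each). Both were called lower (log2 fold changes -2.10 and -0.39), so Lats1 was at 23.3% and Lats2 at 76.2% of its control level. Lats2 RNA in particular was reduced only in part. These are counts per gene, and the stretch that Cre removes was not given, so they do not measure how many alleles were deleted. Principal component 1 held 89.5% of the variance and set the groups apart, with Ad-Cre-GFP libraries at 51.06 to 51.18 and Ad-GFP libraries at -55.53 to -48.37. Principal component 2 held only 3.15%. On it, Ad-GFP replicate 3 lay apart from the other controls, at -18.69 where the other Ad-GFP libraries were at 8.85 and 11.1. Of 14 surface epithelial markers 13 were tested and all were called, 5 higher and 8 lower, and Aldh1a2 had no count in any library. Of all tested genes 69.8% were called, 34.0% higher and 35.8% lower. Msln rose to 215% of its Ad-GFP level, and Krt19 fell to 33.1%, Gata4 to 38.7% and Wt1 to 45.2%. Some called changes were small, with Krt18 at 106% and Krt8 at 87.5%. The summed level of the 14 markers was 3976 to 4011 CPM in Ad-Cre-GFP and 4425 to 4468 CPM in Ad-GFP libraries. The granulosa markers Fshr and Cyp19a1 had no count in any library. In such bulk RNA, fewer cells of a type and less RNA per cell cannot be told apart.

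Genes were tested with edgeR's quasi-likelihood test, with a call made where the Benjamini-Hochberg adjusted p over all 14811 tested genes was under 0.05. All 7 tested members were called, 4 higher (Fst, Inhbb, Amh, Inhba) and 3 lower (Inha, Fstl3, Fstl1) in Ad-Cre-GFP cells. Over all tested genes 69.8% were called, 34.0% higher and 35.8% lower, so a count of calls among 7 genes says little by itself and the sizes matter more. The median absolute log2 fold change over all tested genes was 0.35. The change of Fst was larger than that of 98.2% of tested genes, those of Inha and Inhbb larger than 93.2% and 90.8%, and that of Fstl1, the smallest, larger than 57.4%. Of the 7, 4 changed at least 2-fold (Fst, Inhbb and Amh higher, Inha lower), against 13.8% of all tested genes, and 3 rose at least 2-fold, against 6.25%. The members were chosen with earlier results of these data known, and the shares over all genes are not matched for expression level. These shares are therefore a description and not a test. The 2 groups did not overlap for any of the 7, as for 73.0% of all tested genes.

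**Figure D1:**
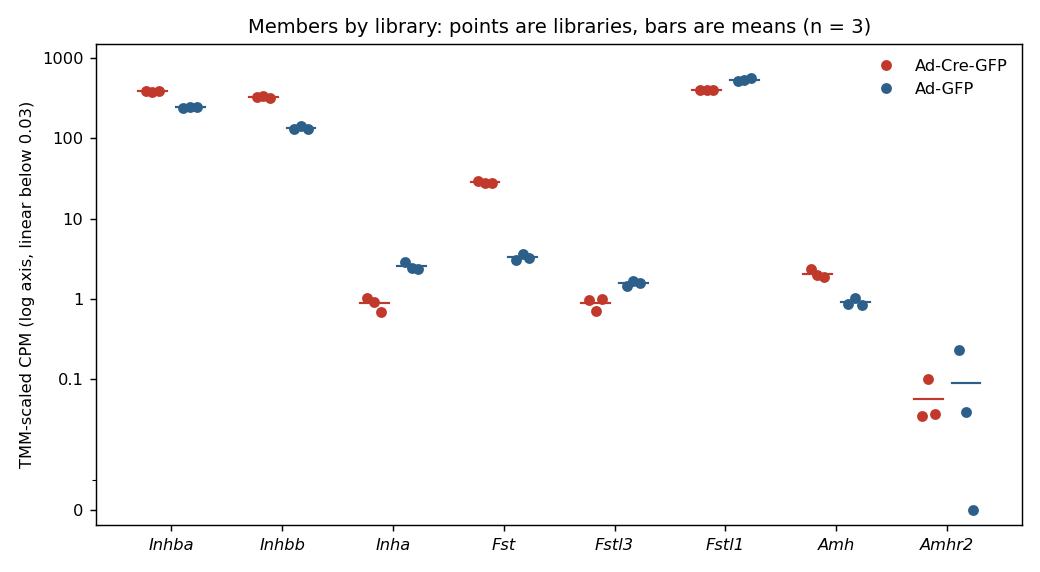
TMM-scaled CPM of the 8 members in each library, on a log axis that is linear below 0.03; points are libraries and bars are means of 3. Inhba, Inhbb, Fst and Amh lie higher in all Ad-Cre-GFP libraries, and Inha, Fstl3 and Fstl1 lower; Amhr2 overlaps near the limit of detection.

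Both beta subunit genes were abundant and both rose. Inhba, the beta A subunit (chromosome 13, 16011851 to 16031621, plus strand, GRCm38), was at 391, 377 and 389 CPM in the Ad-Cre-GFP libraries and 241, 244 and 245 CPM in the Ad-GFP libraries. Every Ad-Cre-GFP library lay above every Ad-GFP library, with a gap far wider than the spread within either group. The log2 fold change was 0.66 ± 0.03 (SE, edgeR adjusted p = 9.65e-15), or 1.58-fold. Inhbb, the beta B subunit (chromosome 1, 119415465 to 119422248, minus strand), was at 324, 333 and 321 CPM in Ad-Cre-GFP and 132, 143 and 131 CPM in Ad-GFP libraries. It rose by 1.27 ± 0.03 (edgeR adjusted p = 2.48e-18), or 2.41-fold.

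The promoters of the beta subunit genes are shown because these are the abundant ligand genes that rose together. Each line gives the 250 bases before the RefSeq transcription start (GRCm38.p6), read 5′ to 3′ on the gene's strand, at chr13:16011601-16011850 on the plus strand for Inhba and chr1:119422249-119422498 on the minus strand for Inhbb. Neither window overlaps an annotated exon, and capitals mark the only motif match.
Inhba: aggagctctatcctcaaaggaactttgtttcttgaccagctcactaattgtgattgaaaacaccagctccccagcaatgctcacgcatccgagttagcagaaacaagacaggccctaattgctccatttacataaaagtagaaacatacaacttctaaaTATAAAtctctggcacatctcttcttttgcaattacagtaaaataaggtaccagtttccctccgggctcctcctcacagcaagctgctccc
Inhbb: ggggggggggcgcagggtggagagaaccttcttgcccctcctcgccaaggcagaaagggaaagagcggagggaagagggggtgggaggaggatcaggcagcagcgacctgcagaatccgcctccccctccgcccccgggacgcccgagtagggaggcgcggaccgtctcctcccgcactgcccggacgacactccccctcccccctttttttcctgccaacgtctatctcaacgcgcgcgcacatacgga
The windows differ in composition, with 43.2% G and C for Inhba and 68.0% for Inhbb. Both strands were searched for the TEAD core GGAATG, the cAMP response element TGACGTCA, the AP-1 site TGANTCA, the GATA site AGATAA, the SF-1 site AAGGTCA and the TATA box TATAAA. The match is a TATAAA on the gene's own strand, 86 to 91 bases before the Inhba start; 12.4% of 32851 promoter windows of the same length hold that motif on either strand. The TEAD core, which 12.6% of windows hold, is not among the letters of either window.

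Counted per kb of annotated exon, the order of the beta subunits turned. By CPM Inhba stayed above Inhbb, at 386 and 326 CPM in Ad-Cre-GFP and 243 and 135 CPM in Ad-GFP cells. The turn thus rests on annotated lengths of 6.39 kb for Inhba and 4.255 kb for Inhbb. The longest transcript gives the same 2 lengths, so that alternative cannot test the turn, and the transcript ends used in these cells were not examined. In CPM per kb of exon, Inhbb stood at 76.7 ± 1.48 and Inhba at 60.4 ± 1.13 in Ad-Cre-GFP libraries (SD, n = 3), while in Ad-GFP libraries Inhbb stood at 31.7 ± 1.55 and Inhba at 38.1 ± 0.316. Inhbb made up 55.5%, 57.0% and 55.4% of beta subunit transcripts per kb in the Ad-Cre-GFP libraries and 45.1%, 46.8% and 44.5% in the Ad-GFP libraries. Summed per kb, the beta subunits reached 137 ± 0.632 in Ad-Cre-GFP and 69.8 ± 1.61 in Ad-GFP libraries, a ratio of 1.96. These sums and shares are descriptions of the members and were not tested.

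Inha, the alpha subunit that turns beta subunits into inhibin, moved the other way from a low level. The gene (chromosome 1, 75507077 to 75510366, plus strand) had 30, 27 and 19 counts in the Ad-Cre-GFP libraries, or 1.03, 0.903 and 0.694 CPM. In the Ad-GFP libraries it had 63, 61 and 44 counts, or 2.87, 2.39 and 2.33 CPM. The groups did not overlap although the Ad-Cre-GFP libraries were deeper, and Inha fell by 1.52 ± 0.20 on the log2 scale (edgeR adjusted p = 7.90e-07), to 34.8% of the Ad-GFP level. Per kb, beta subunit transcripts outnumbered Inha 198, 224 and 290 to 1 in the Ad-Cre-GFP libraries and 35.3, 44.3 and 43.7 to 1 in the Ad-GFP libraries.

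Among the binding proteins, Fst had the largest change of the members. Fst, which encodes follistatin (chromosome 13, 114452290 to 114458951, minus strand), had 852, 837 and 760 counts in the Ad-Cre-GFP libraries and 66, 93 and 60 in the Ad-GFP libraries. That was 29.1, 28.0 and 27.7 CPM in Ad-Cre-GFP and 3.01, 3.64 and 3.18 CPM in Ad-GFP libraries. The lowest Ad-Cre-GFP library was thus several times above the highest Ad-GFP library. The log2 fold change was 3.10 ± 0.08 (edgeR adjusted p = 1.12e-18), or 8.57-fold. Gm47040, an antisense gene on the other strand, covers 115 of the 4589 exon bases of Fst. It was not among the genes counted, and how reads in that stretch were assigned is not stated. Beta subunit transcripts per kb still exceeded Fst in every library, 21.6, 22.5 and 22.5 to 1 in the Ad-Cre-GFP libraries and 105, 90.4 and 99.7 to 1 in the Ad-GFP libraries. These ratios use the union of all annotated Fst exons (4.59 kb); with the longest transcript (2.92 kb) they averaged 14.2 in Ad-Cre-GFP and 62.6 in Ad-GFP libraries.

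**Figure D2:**
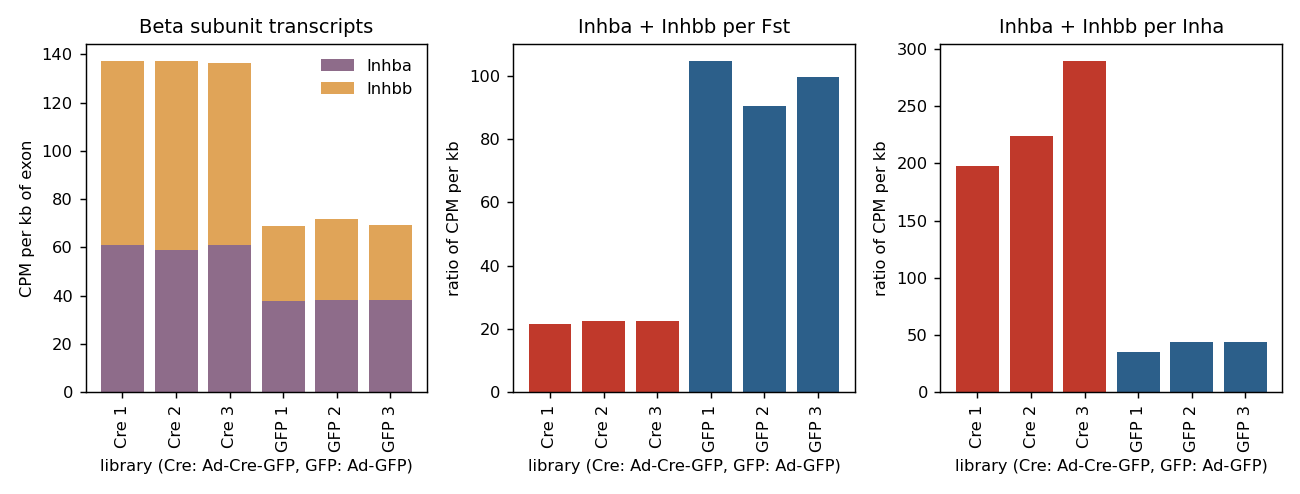
Left, Inhba and Inhbb in CPM per kb of exon, stacked, for each library; middle and right, the summed beta subunits divided by Fst and by Inha per kb. The beta subunit sum is 136 to 137 in Ad-Cre-GFP and 68.7 to 71.7 in Ad-GFP libraries, the ratio to Fst is lower and the ratio to Inha higher in every Ad-Cre-GFP library.

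Fstl3, the second activin-binding protein, was lower. It (chromosome 10, 79777272 to 79782630, plus strand) had 28, 21 and 27 counts in the Ad-Cre-GFP libraries, or 0.958, 0.703 and 0.986 CPM. The Ad-GFP libraries had 32, 42 and 30 counts, or 1.46, 1.64 and 1.59 CPM. The highest Ad-Cre-GFP library and the lowest Ad-GFP library were only 2 raw counts apart, and scaling for depth widened the gap. Fstl3 fell by 0.83 ± 0.22 on the log2 scale (edgeR adjusted p = 0.00208), the weakest call of the members. The end of Prss57 on the other strand covers 1157 of the 2445 exon bases of Fstl3, and how reads in that stretch were assigned is not stated. Prss57 itself had at most 1 count in any library.

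Fstl1 was the most abundant member per length in both groups and changed least. Fstl1 (chromosome 16, 37776873 to 37836514, plus strand), a secreted glycoprotein with a follistatin domain, was at 405, 403 and 396 CPM in Ad-Cre-GFP and 515, 527 and 569 CPM in Ad-GFP libraries. Ad-GFP replicate 3 was the highest of all 6, and the groups did not overlap. It fell by 0.42 ± 0.03 on the log2 scale (edgeR adjusted p = 4.42e-10), to 74.8% of the Ad-GFP level. Without Ad-GFP replicate 3 the log2 fold change was -0.38. In 1 of its 6 annotated transcripts a total of 575 bases is near-identical to parts of transcripts of 10 other genes. Counted over their whole length, those genes had 44263 counts in all 6 libraries together, against 70260 for the whole of Fstl1. Reads in the shared bases were not counted apart, so these totals do not give their number. How reads in these bases were assigned is not stated, and their part in the Fstl1 level was not tested.

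Amh was higher from a level close to the filter. Amh (chromosome 10, 80805243 to 80807648, plus strand) had 69, 59 and 51 counts in the Ad-Cre-GFP libraries, or 2.36, 1.97 and 1.86 CPM. The Ad-GFP libraries had 19, 26 and 16 counts, or 0.866, 1.02 and 0.848 CPM. The groups did not overlap, and the log2 fold change was 1.17 ± 0.21 (edgeR adjusted p = 3.61e-05), or 2.25-fold. Sf3a2, a splicing factor gene on the same strand, ends 318 bases before Amh and had many more reads, at 118 ± 2.41 CPM in Ad-Cre-GFP and 87.8 ± 5.20 CPM in Ad-GFP cells (SD, n = 3). Sf3a2 rose by 0.43 ± 0.04 (edgeR adjusted p = 2.25e-09), less than Amh. Amh counts were 2.03%, 1.63% and 1.58% of Sf3a2 counts in the Ad-Cre-GFP libraries and 0.979%, 1.10% and 1.03% in the Ad-GFP libraries, so this share was higher in every Ad-Cre-GFP library. The part of reads running on from Sf3a2 in the Amh level was not tested.

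Amhr2, the AMH type II receptor (chromosome 15, 102445367 to 102454633, plus strand), was at the limit of detection. It had 1, 3 and 1 counts in the Ad-Cre-GFP libraries and 5, 1 and 0 in the Ad-GFP libraries. The ratio of Ad-Cre-GFP to Ad-GFP was 0.639 with a 95% exact binomial interval of 0.154 to 2.51, which covers counting error only. A difference was not detectable at this depth. The limit that no count in a library sets is 3 counts, which is 0.0990 to 0.161 CPM before TMM scaling.

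Ordered by CPM per kb of the union of annotated exons, Ad-Cre-GFP libraries had Fstl1 (81.7 ± 1.07), Inhbb (76.7), Inhba (60.4), Fst (6.17 ± 0.162), Amh (1.24 ± 0.157), Inha (0.593 ± 0.114), Fstl3 (0.361 ± 0.0638) and Amhr2 (0.0284 ± 0.0187), with no overlap between neighbours over the 3 libraries. In Ad-GFP libraries the order was Fstl1 (109 ± 5.78), Inhba (38.1), Inhbb (31.7), Inha (1.71 ± 0.201), Fst (0.714 ± 0.0710), Fstl3 (0.640 ± 0.0389), Amh (0.545 ± 0.0556) and Amhr2 (0.0444 ± 0.0608). There Fst and Fstl3 overlapped, as did Fstl3 and Amh. With the longest transcript as the length the order was the same in both groups, but the overlaps were not: neither of these pairs overlapped in Ad-GFP libraries, and Inha (0.470 to 0.696) and Fstl3 (0.359 to 0.504) overlapped in Ad-Cre-GFP libraries. The ratio of Fst to Fstl3 per kb of exon union was 17.5 ± 3.31 in Ad-Cre-GFP and 1.11 ± 0.0587 in Ad-GFP libraries. By the longest transcript it was 22.0 ± 4.15 in Ad-Cre-GFP and 1.40 ± 0.0738 in Ad-GFP libraries.

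**Figure D3:**
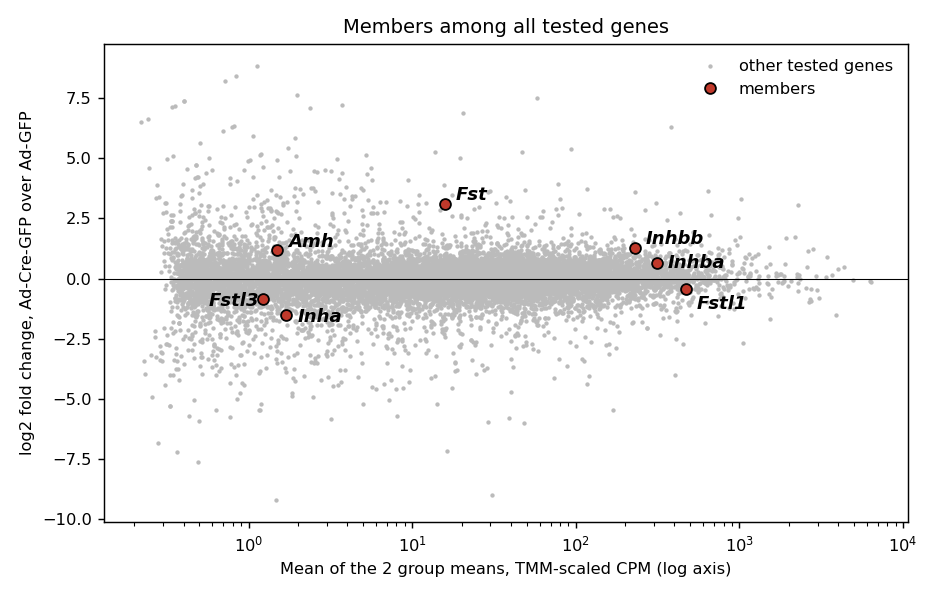
Log2 fold change of Ad-Cre-GFP over Ad-GFP against mean TMM-scaled CPM (log axis) for all 14811 tested genes in grey, with the 7 tested members in red. Fst (3.10) lies above nearly all genes of its level, Inhbb (1.27) and Inhba (0.66) rise among abundant genes, and Amh, Inha and Fstl3 lie near the low end of expression, where the grey cloud is widest.

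By number of genes the receptor side was mostly lower. Of 17 receptors and co-receptors of the family 12 were tested, of which 1 rose, 8 fell and 3 were not called. Among all tested genes 69.8% were called, 34.0% higher and 35.8% lower. The median log2 fold change of the 12 was -0.42, against -0.01 over all tested genes. The summed level of the 17 was higher, at 1145 to 1182 CPM in Ad-Cre-GFP and 985 to 1042 CPM in Ad-GFP libraries. Tgfbr2, the most abundant of them, was at 804 CPM in Ad-Cre-GFP and 489 CPM in Ad-GFP cells. Acvr1b, the activin type I receptor ALK4, was at 5.55 ± 0.453 CPM in Ad-Cre-GFP and 16.2 ± 1.23 CPM in Ad-GFP cells (SD, n = 3), a log2 fold change of -1.54 ± 0.09 (edgeR adjusted p = 7.57e-13). The activin type II receptors were not called, Acvr2a at -0.07 ± 0.06 (edgeR adjusted p = 0.304) and Acvr2b at -0.15 ± 0.15 (edgeR adjusted p = 0.383). Acvr1c, the alternative type I receptor ALK7, had 1 count in all 6 libraries together. Tgfbr3l, a co-receptor for inhibin B, fell by 1.15 ± 0.24 (edgeR adjusted p = 0.000200). Betaglycan (Tgfbr3), another inhibin co-receptor, was below the filter with 12 counts in all Ad-Cre-GFP and 30 in all Ad-GFP libraries. The TGF-beta receptors went apart, Tgfbr1 at -1.46 ± 0.04 and Tgfbr2 at 0.72 ± 0.03. Acvr1 and Bmpr1a, type I receptors that AMH can use, fell by 0.63 ± 0.05 and 0.28 ± 0.03, and Bmpr1b was not called. The fall of Bambi, a pseudoreceptor, had an adjusted p of 0.0499 and was lost in 10 of 13 alternatives.

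SMADs and their regulators went both ways. Of 14 tested, 4 rose, 6 fell and 4 were not called (median -0.03), where 69.8% of all tested genes were called. Smad3, a transducer of activin, was at 86.3 ± 0.312 CPM in Ad-Cre-GFP and 185 ± 4 CPM in Ad-GFP cells and fell by 1.10 ± 0.03 (edgeR adjusted p = 5.40e-18). Smad2, its partner, rose by 0.23 ± 0.04 (edgeR adjusted p = 2.77e-05), and the shared Smad4 (-0.03 ± 0.03) and the inhibitory Smad7 (-0.04 ± 0.03) were not called. Smad9, on the BMP and AMH side, rose by 1.43 ± 0.13, and Skil, a SMAD corepressor, fell by 0.48 ± 0.03.

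All 6 tested proteases of the ligand-processing list were called, 3 higher and 3 lower, where 69.8% of all tested genes were called, 34.0% higher and 35.8% lower. Proprotein convertases cut activin and related precursors into their active form. Pcsk5 was at 25.8 ± 0.575 CPM in Ad-Cre-GFP and 3.61 ± 0.382 CPM in Ad-GFP cells (SD, n = 3), a log2 fold change of 2.83 ± 0.08 (edgeR adjusted p = 4.98e-18). Pcsk6 rose by 2.18 ± 0.17, and Tll1, a metalloprotease of the BMP1 family, by 2.80 ± 0.21. Furin, a widely expressed convertase, was at 90.8 ± 2.50 CPM in Ad-Cre-GFP and 175 ± 5 CPM in Ad-GFP cells and fell by 0.94 ± 0.03, and Bmp1 fell by 0.52 ± 0.05.

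Other ligands of the family and other proteins with follistatin domains also went both ways. Of 14 ligands 6 were tested and all were called, 4 higher and 2 lower, against 69.8% called over all tested genes. Bmp4, which follistatin also binds, rose by 1.51 ± 0.04, Gdf11 by 0.76 ± 0.07 and Tgfb2 by 0.59 ± 0.03, and Tgfb3 fell by 1.25 ± 0.03 (edgeR adjusted p = 9.27e-19). The remaining beta subunit genes Inhbc and Inhbe had 2 counts and 0 counts in all 6 libraries together. Of 15 proteins with follistatin domains, the members aside, 8 were tested, with 4 rises, 2 falls and 2 not called. The share called was 75%, near the 69.8% over all tested genes, of which 34.0% were called higher and 35.8% lower. Igfbp7 was at 85.5 ± 3.88 CPM in Ad-Cre-GFP and 21.3 ± 0.698 CPM in Ad-GFP cells (SD, n = 3), up by 2.01 ± 0.05. Tmeff2, a transmembrane protein, fell by 1.58 ± 0.05, and Sparc, a matrix protein, by 0.37 ± 0.03.

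Gonadal transcription factors, some of which are known to act on Inha and Amh, were mostly lower. Of 11 tested, 2 rose and 9 fell, where 34.0% of all tested genes were called higher and 35.8% lower. The median log2 fold change was -0.37, against -0.01 over all tested genes. The falls of Nr5a1 (-0.22), Nr2f2 (-0.25) and Zfpm2 (-0.21) were smaller than the median absolute change over all tested genes, 0.35. Gata4, a factor of the Amh and Inha promoters, was at 106 ± 1.15 CPM in Ad-Cre-GFP and 273 ± 5.63 CPM in Ad-GFP cells (SD, n = 3), a log2 fold change of -1.37 ± 0.03 (edgeR adjusted p = 8.39e-20). Wt1 fell by 1.15 ± 0.03 and Gata6 by 1.21 ± 0.08. Nr5a1, which encodes SF-1, fell by 0.22 ± 0.03, and Sox9 rose by 0.32 ± 0.06. Foxl2, a granulosa cell factor, had 22, 28 and 13 counts in the Ad-Cre-GFP libraries and 1, 8 and 1 in the Ad-GFP libraries (log2 fold change 2.24 ± 0.49, edgeR adjusted p = 0.000444). Its groups did not overlap, but 8 of its 10 Ad-GFP counts came from replicate 2, and without that library the log2 fold change was 3.76, so its size is uncertain.

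**Figure D4:**
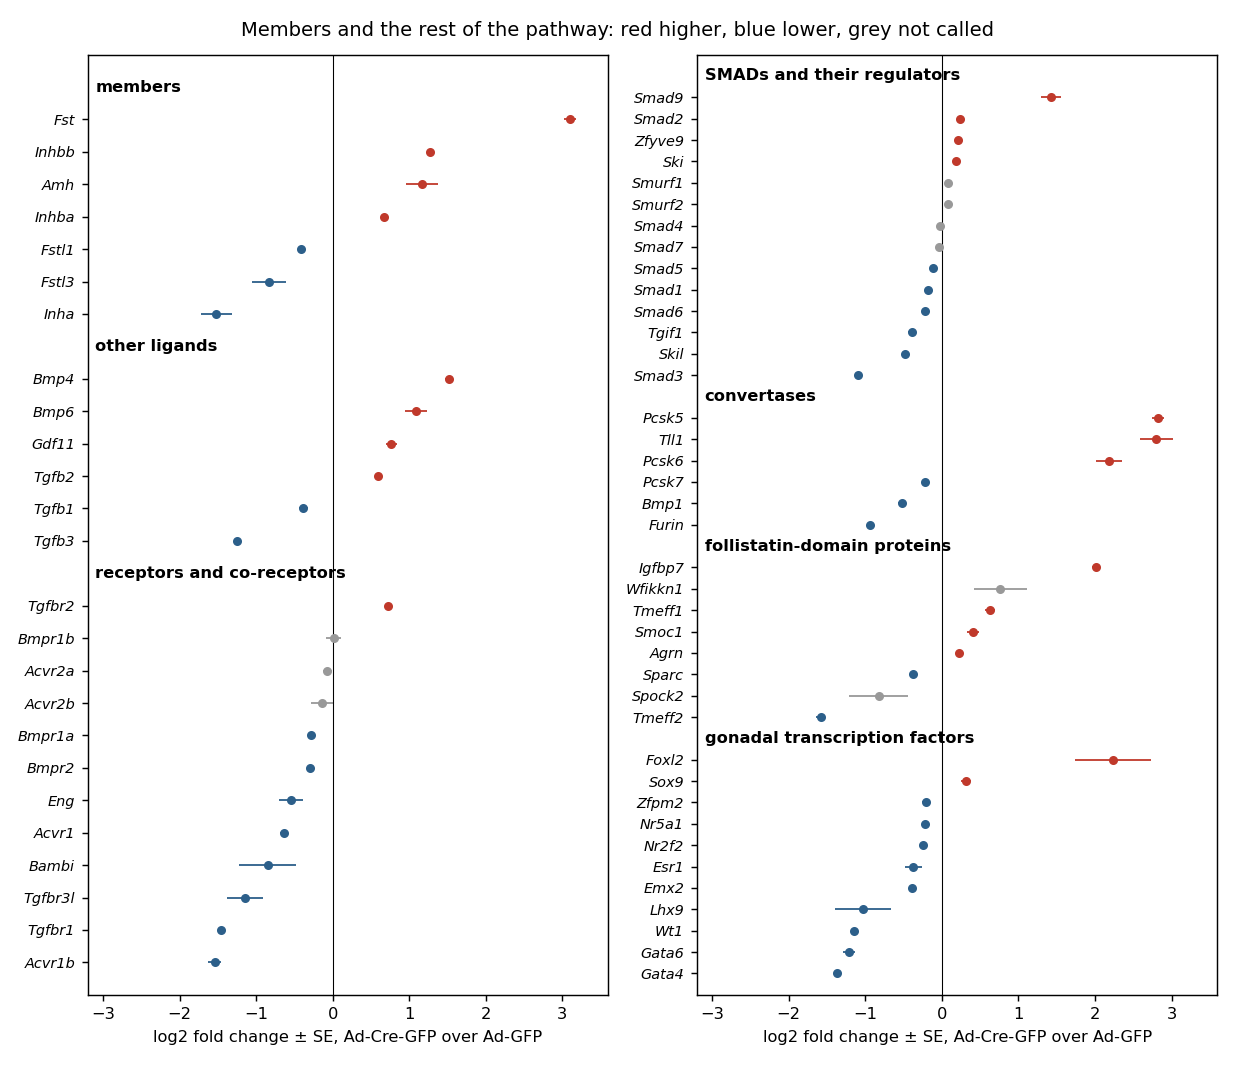
Log2 fold changes with SE of the tested members and of the tested genes of 6 pathway lists; red points were called higher, blue lower and grey not called. Receptors lie mostly left of 0, with Acvr1b at -1.54, and the convertases split between Pcsk5 and Tll1 near 2.8 and Furin at -0.94.

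Beside Amh and the inhibin genes, other granulosa markers did not move one way. Of 10 such markers outside the members 4 were tested, with 1 rise (Foxl2), 1 fall (Kctd14) and 2 not called. Of all tested genes 69.8% were called. The summed level of the 10 markers was 20.2 to 22.8 CPM in Ad-Cre-GFP and 22.0 to 24.5 CPM in Ad-GFP libraries. Slc18a2 alone gave 20.3 CPM in Ad-Cre-GFP and 21.6 CPM in Ad-GFP libraries on average. Stromal fibroblast markers summed to 984 to 1046 CPM in Ad-Cre-GFP and 2675 to 2842 CPM in Ad-GFP libraries, with Lum and Tcf21 at 0 in all. Col3a1 alone gave 738 CPM in Ad-Cre-GFP and 2350 CPM in Ad-GFP libraries on average. Theca and steroidogenic markers summed to 95.7 to 97.8 CPM in Ad-Cre-GFP and 130 to 131 CPM in Ad-GFP libraries, with Lhcgr and Hsd3b1 at 0. Nr5a1 alone gave 90.6 CPM in Ad-Cre-GFP and 105 CPM in Ad-GFP libraries on average. Endothelial markers summed to 10.2 to 11.6 CPM in Ad-Cre-GFP and 3.01 to 3.09 CPM in Ad-GFP libraries, with Tie1 and Emcn at 0. Only Flt1 and Kdr passed the filter. Flt1 averaged 8.48 CPM in Ad-Cre-GFP and 2.77 CPM in Ad-GFP libraries, and Kdr 2.00 CPM in Ad-Cre-GFP and 0.0565 CPM in Ad-GFP libraries. Immune markers summed to 6.66 to 7.23 CPM in Ad-Cre-GFP and 10.99 to 13.1 CPM in Ad-GFP libraries, with Adgre1 at 0. Only Cd14 and Cd68 passed the filter. Cd14 averaged 4.01 CPM in Ad-Cre-GFP and 9.46 CPM in Ad-GFP libraries, and Cd68, not called, 2.76 CPM in Ad-Cre-GFP and 2.81 CPM in Ad-GFP libraries. Oocyte markers summed to 0.292 to 0.616 CPM in Ad-Cre-GFP and 0.318 to 0.430 CPM in Ad-GFP libraries, and none passed the filter. The part of other cell types in the member changes was not tested.

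The genes whose pattern lay nearest to Fst, Inhbb and Inhba were found by the root mean square distance of centred log2(CPM + 0.1), among 9504 named protein-coding genes with a mean of at least 5 CPM over the 6 libraries. Nearest to Fst were Vgll2 (distance 0.0635), Igfbp2 (0.0663) and Dlc1 (0.0760). Fst and Vgll2 passed that minimum through the Ad-Cre-GFP libraries, Vgll2 being at 9.70 CPM in Ad-Cre-GFP and 0.992 CPM in Ad-GFP cells. Those nearest to Inhbb were Cdkn1a (0.0288), Tmpo and Umps. Inhba lay nearest to Armc9 (0.00913), Heatr3 and Crybg1. With 6 libraries in 2 groups this likeness mostly reflects a similar fold change between groups, and it is given as a description.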

How the data were processed

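The authors deposited raw read counts as whole numbers, with 1 row per Ensembl gene and 1 column per library named after a BAM file, per the file headers. Of tools and builds, kallisto 0.46.2, sleuth 0.30.1 and GRCm38 appear in the submitters' processing notes, with no role stated. Aligner, counting tool, strand setting and annotation release: not given in the sources used here. Gene IDs were matched without version to GENCODE mouse release 21 (GRCm38) for symbols, positions and exon lengths, and 48058 of 48440 matched. Promoters came from RefSeq (GRCm38.p6), whose table held 6 of the 8 members; Fst and Amh were the others.

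After filterByExpr and TMM scaling, edgeR 4.0.16 in R 4.3.3 gave the quasi-likelihood test (robust, no replicate block); all p-values are adjusted over 14811 genes. All 7 tested members exceeded the filter's 0.377 CPM in all 3 libraries of each group. Standard errors are the log2 fold change over the square root of F. Near-identical stretches were sought with minimap2 2.31 (at least 200 bases at 90% identity). Replicate pairs gave a chi-square per gene of 2.04 to 4.27, so no pair agreed within sampling noise. Whether replicates were separate cultures is not stated; the p-values therefore reflect the spread of these 6 libraries alone, which may be technical.

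The members and lists were chosen with earlier results of these data known. All members are named, with up to 3 called genes of smallest adjusted p per list, the nearest patterns (those of Fstl1 are not reported here), and further list genes picked as examples with their values known. The test was tried on simulated data, after a coding error in the first simulation (no gene had been changed) was corrected and more simulations added: fold changes were recovered, and false calls lay near the nominal rate with dispersions on the trend but above it with per-gene dispersions, so weak calls such as that of Bambi are less certain than their adjusted p. Alternatives were other scalings, filters and depths, DESeq2 1.42.0, limma-voom (limma 3.58.1), a replicate block, leaving out each library and another gene length.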

Additional observations from a re-analysis of the deposited data

How the results depend on the processing

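All 7 tested members kept their direction and call under all 15 alternatives each (105 values). Log2 fold changes ranged over 0.65 to 0.68 for Inhba, 1.25 to 1.31 for Inhbb, 3.04 to 3.19 for Fst, 1.07 to 1.27 for Amh, -1.86 to -1.37 for Inha, -0.90 to -0.68 for Fstl3 and -0.45 to -0.38 for Fstl1. The highest adjusted p of any was 0.0190, for Fstl3 with DESeq2. The number of genes called ran from 9351 with DESeq2 to 10854 without a low-count filter, against 10344. With the replicate numbers as a block 10478 genes were called, and no member's call changed; deviations of same-numbered libraries correlated at 0.049, 0.051 and 0.005, so the numbers were not taken to pair samples, and replicates 1 and 2 but not 3 matched their own number best.

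Of the list counts, the rises among gonadal transcription factors went from 2 to 1 at a mean of at least 1 CPM and after thinning to the smallest library, where Foxl2 was not tested. Without the low-count filter these rises went to 3, and the falls on that list went from 9 to 8 in some alternatives. Other list counts also shifted in some alternatives. Rises among SMADs and their regulators went from 4 to as many as 6, and falls from 6 to 5. Falls among receptors went from 8 to 7. Among follistatin-domain proteins, rises went from 4 to 5 and falls from 2 to 3. Fst per beta subunit was 0.0707 in Ad-Cre-GFP and 0.0160 in Ad-GFP libraries by the longest transcript, against 0.0450 and 0.0102 by the union of exons. The sign of Bmpr1b, never called, turned to -0.001 with upper-quartile scaling and after thinning, and ran from -0.081 to 0.065 as each library was left out. The calls of Smad5 and Lhx9 were lost in 5 of 15 and 3 of 14 alternatives, and calls were gained for Smurf1 and Smurf2 in 4 and 5 of 15 and for Wfikkn1 and Spock2 in 3 and 2 of 13. Depth limits Amhr2 most, and counts under 100 per library limit Inha, Fstl3 and Amh, and Fst in the Ad-GFP libraries (60 to 93 counts). Without the low-count filter Amhr2 gave -0.59 (edgeR adjusted p = 0.659).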
